A study of Mus musculus with 4 samples.

Results

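The cells described here come from adult mouse long bone and carry at least 2 of the genes *Msmp*, *Myoc*, *Casr* and *Chrdl2*, which had been named for a set of chondrocytes. They are called 4-gene cells below, although only 1 held all 4 genes and 266 of 349 met a separate condition on cartilage genes. They were chosen by their own counts: barcodes with at least 1000 UMIs (unique molecular identifiers, each standing for 1 captured RNA molecule), at least 800 genes, under 15% mitochondrial and under 5% hemoglobin UMIs were kept, and a member had at least 4 UMIs of the 4 genes together with at least 2 of them detected. Members also had fewer than 20 *Col10a1* UMIs per 10000, at most 2 of *Chil1* and *Sfrp5*, at most 2 of *Angptl7* and *Slurp1*, and none of *Cdh5* or *Ptprc*. By this rule 349 of 24739 filtered barcodes (1.41%) were 4-gene cells, 102 and 119 in the mutant libraries and 53 and 75 in the control libraries.

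The 4 scRNA-seq libraries are from non-hematopoietic cells of the metaphysis of femur and tibia at 12 weeks of age, 2 from Lats2iΔEC mutants and 2 from littermate controls. Mutants carried *Lats2* lox/lox and *Cdh5*(PAC)-CreERT2, a transgene that drives tamoxifen-inducible Cre recombinase from an endothelial promoter, so that the deletion of *Lats2* was aimed at endothelial cells and not at chondrocytes. Controls lacked Cre, and by the methods of the study both genotypes received tamoxifen for 5 days at 4–5 weeks, although the labels call the controls untreated. Bones were digested with collagenase and hematopoietic cells were depleted, so the yield of cartilage cells depends on the digestion as well as on the tissue. How many animals each library holds is not given in the sources used here.

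Chondrocytes build cartilage from type II collagen and aggrecan and occur as articular, growth plate and fibrocartilage forms. Those at the joint surface secrete lubricin, the product of *Prg4*, and adult cartilage holds secreted antagonists that limit bone morphogenetic protein (BMP) and Wnt signals. Of the 4 genes, *Msmp* encodes a small secreted protein of the microseminoprotein family, *Myoc* encodes myocilin, a secreted glycoprotein best known from the eye, *Casr* encodes the calcium-sensing receptor, and *Chrdl2* encodes a chordin-like secreted antagonist of BMPs. On GRCm39, *Msmp* lies on chromosome 4 from 43583212 to 43584494, *Myoc* on chromosome 1 from 162466718 to 162477265, *Casr* on chromosome 16 from 36310949 to 36382503 and *Chrdl2* on chromosome 7 from 99655261 to 99683939. *Msmp* lies within *Rgp1* on the opposite strand. *Frzb*, on chromosome 2 from 80242313 to 80278304, encodes a secreted Wnt antagonist and *Dgki*, on chromosome 6 from 36821535 to 37277119, a diacylglycerol kinase. These 2 genes were named as further markers of the cells with results of these data in view, and the rule did not use them.

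Most 4-gene cells were chondrocyte-like by cartilage markers that the rule did not use. Of the 349 cells, 266 (76.2%) also held at least 20 UMIs per 10000 of 8 cartilage genes with at least 4 of the 8 detected, and the other cells fell below that level. The condition was met by 85 of 102 and 95 of 119 mutant members but by 31 of 53 and 55 of 75 control members, so results on the main cartilage genes are also given within it. Summed over the members of a library and scaled to the total of their UMIs (CPM, the usual counts-per-total scale), *Col2a1*, the gene of type II collagen, stood at 7909 and 11429 CPM in the mutant libraries and 2847 and 5691 CPM in the control libraries. *Comp*, a cartilage matrix protein, stood at 7576 and 8060 CPM in mutants against 5564 and 6123 CPM in controls, and *Sox9*, the transcription factor of the chondrocyte fate, at 810.1 and 641 CPM in mutants against 458 and 367 CPM in controls. The rule itself sets *Ptprc* and *Cdh5* to 0. Of the other 4 leukocyte markers *S100a9* and *Cd74* were at 0 in every library, and the sum was at most 6.05 CPM. The other 4 endothelial markers summed to between 2.34 and 8.73 CPM and the 5 mural markers to between 8.06 and 22.2 CPM. Of the 4 tendon markers, *Tnmd*, a tenocyte gene, was at 0.778 CPM in 1 mutant library and without counts in the others, while the whole list summed to between 292 and 399.5 CPM, most of it *Thbs4*, at 270 to 383 CPM.

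Markers of several other cell types were present, and their part in the results was not tested beyond the values given here. The fibroblast markers summed to 5588 and 6128 CPM in mutants and 7138 and 8046 CPM in controls, nearly all of it *Dcn*, which other chondrocytes also held at 3156 to 3823 CPM. The reticular stromal markers summed to between 175 and 458 CPM and the adipocyte markers to between 5.45 and 20.2 CPM. The 6 osteoblast markers summed to 5436 and 6254 CPM in mutants and 3480 and 22800 CPM in controls, most of it *Ibsp* in the first 3 libraries, at 4478 and 5036 CPM in mutants against 2447 and 4828 CPM in controls. Other chondrocytes also held *Ibsp*, at 3253 to 4509 CPM. In control library 2, osteocalcin (*Bglap* and *Bglap2*) made up 2151 of every 10000 UMIs of 1 member. The 5 erythroid markers summed to between 515 and 856 CPM. At least 3 of their UMIs were counted in 90 of 102 and 112 of 119 mutant members but in 13 of 53 and 18 of 75 control members, and free RNA (barcodes of 10 to 100 UMIs) held the hemoglobin gene *Hbb-bs* at 23481 and 25237 CPM in mutants and at 4740 and 5256 CPM in controls. In all, 4 members had hemoglobin at 50 or more UMIs per 10000, 1 of them in mutants. The named genes whose call ended without the members rich in osteocalcin or hemoglobin are given together below.

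The members were read at 1285036 and 1538739 UMIs in mutants and 495651 and 744212 UMIs in controls. The median member held 10760 and 11055 UMIs in the mutant libraries but 8144 and 7944 UMIs in the control libraries, so mutant members were the deeper ones, and the part of this difference in the results was not tested beyond the thinned values given below. Other chondrocytes were at medians between 12293 and 14181. No member barcode was shared between libraries, although 6 to 16 filtered barcodes were shared in each pair. As a check of the labels, *Cre-ERT2* stood at 54.2 and 47.7 CPM in barcodes with at least 3 *Cdh5* UMIs of mutants and at 1.01 and 0.862 CPM in those of controls. *Lats2* in the same barcodes stood at 92.3 and 95.5 CPM against 129.99 and 118 CPM. In 4-gene cells no UMI of *Cre-ERT2* was counted, which allows up to between 1.95 and 6.05 CPM by library, and *Lats2* stood at 39.7 and 35.1 CPM in mutants against 33.3 and 35.6 CPM in controls (log2 fold change 0.16, standard error 0.258, adjusted p = 0.777). *Lats1*, which encodes the related kinase, stood at 24.1 and 29.2 CPM in mutants against 38.3 and 28.7 CPM in controls (log2 fold change −0.24, standard error 0.286, adjusted p = 0.686).

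The 4 genes did not come as a set. Only 1 of the 349 cells held all 4, while 73 held 3 and 275 held 2. *Myoc* was the commonest, found in 77.5% and 78.2% of mutant and 67.9% and 77.3% of control members, and *Casr* was found in 60.8% and 63.9% against 66.0% and 64.0%. *Msmp* was found in 23.5% and 31.1% of mutant and 67.9% and 58.7% of control members. *Chrdl2* went the other way, with 60.8% and 52.1% against 15.1% and 17.3%. The rule chose members by these genes, so more members with *Chrdl2* by itself lowers the shares of the others. Over all filtered barcodes, members with *Msmp* numbered 24 of 5133 and 37 of 5899 in mutants. In controls they numbered 36 of 6868 and 44 of 6839. After each cell was thinned to 2800 UMIs, with none left out, *Msmp* was found in 17.6% and 24.4% against 56.6% and 56.0%, and *Chrdl2* in 41.2% and 35.3% against 5.66% and 9.33%. *Casr* was then found in 20.6% and 32.8% of mutant and 43.4% and 50.7% of control members. For *Myoc* the thinned shares were 58.8% and 55.5% against 47.2% and 64.0%. In barcodes with at least 3 *Cdh5* UMIs, which should lack these genes, *Msmp* was found in 4.1% to 8.59%, *Myoc* in 0.307% to 3.42%, *Casr* in 0.153% to 0.901% and *Chrdl2* in at most 0.721%, at median depths of 6794 to 8413 UMIs.

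**Figure D1:**
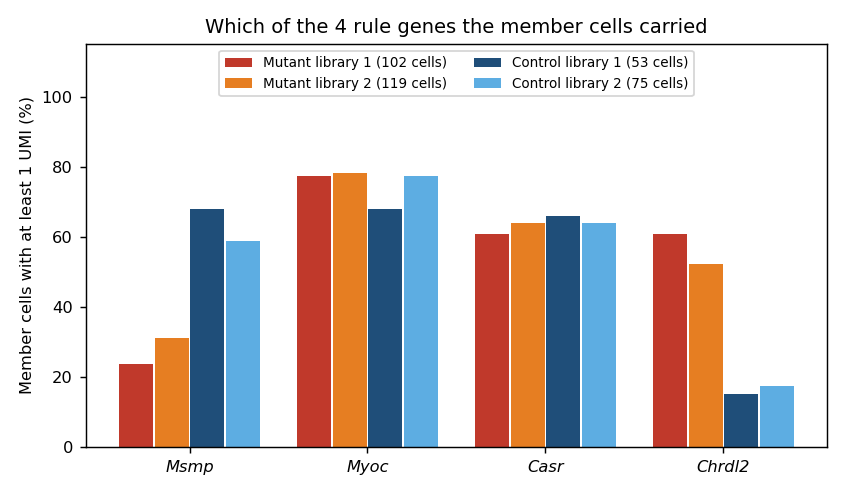
Percent of 4-gene cells of each library in which each of the 4 genes of the rule was detected; each bar is 1 library. Before thinning, *Myoc* and *Casr* were found at similar shares in all libraries. *Chrdl2* was found in a larger share of mutant members (52.1% and 60.8% against 15.1% and 17.3%) and *Msmp* in a larger share of control members. These shares depend on each other because the rule chose members by these genes. Members with *Msmp* numbered 24 and 37 in mutants and 36 and 44 in controls. After thinning to 2800 UMIs, not shown, *Casr* was found in fewer mutant members (20.6% and 32.8% against 43.4% and 50.7%).

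Few 4-gene cells held both *Msmp* and *Chrdl2*. Of the members with *Msmp*, 1 of 24 and 5 of 37 in mutants and 1 of 36 and 3 of 44 in controls also held *Chrdl2*. The rule asks for a pair of genes, which by itself lowers that overlap, so the same was counted in all barcodes that met the chondrocyte condition. There *Chrdl2* was found in 12.8%, 13.5%, 5.02% and 4.55% of cells in the order mutant 1, mutant 2, control 1 and control 2, and in 1 of 22, 4 of 32, 0 of 25 and 1 of 37 cells with at least 4 *Msmp* UMIs. The count of 0 allows a share of up to 12.0%, and these small counts were not tested against the shares over all chondrocytes. *Chrdl2* and *Myoc* met more often: 79 of 255, 103 of 291, 11 of 75 and 13 of 71 chondrocytes with *Chrdl2* also held *Myoc*, where *Myoc* was found in 7.30% to 13.9% of all chondrocytes.

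*Msmp* was made by few cells at great height. It stood at 1218 and 15056 CPM in the mutant libraries and 30681 and 34056 CPM in the control libraries over all members, but the median member had 0 UMIs of it in mutants and 1 in controls, and the 5 highest cells of a library held between 80.7% and 95.7% of its member counts. The highest member carried 10738 *Msmp* UMIs, 42.0% of all its UMIs. Free RNA held *Msmp* at 53.7 and 177 CPM in mutants and 1511 and 387 CPM in controls, more than the 32.4 to 67.5 CPM of other chondrocytes in each of the 4 libraries. The level of *Msmp* over members thus rested on few cells per library, and it is given without a test because the rule used it.

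At the threshold of the rule, 25 members held exactly 4 UMIs of the 4 genes, and 46 barcodes that met every other condition held at least 3 and under 4. A further 84, 120, 56 and 95 barcodes held at least 4 UMIs of only 1 of the genes.

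The share of 4-gene cells was compared between genotypes to ask whether their frequency changed with the deletion of *Lats2* in the endothelium. They made up 1.99% (95% Clopper-Pearson interval 1.62% to 2.41%) and 2.02% (1.67% to 2.41%) of filtered barcodes in mutants and 0.772% (0.579% to 1.01%) and 1.10% (0.864% to 1.37%) in controls. The mean was 2.00% ± 0.0213 against 0.934% ± 0.230 (SD, n = 2 libraries each), 2.14 times higher in mutants, and the groups did not overlap (2-sided exact permutation test, p = 0.3333, the smallest that 2 libraries against 2 allow). Barcodes that met the chondrocyte condition numbered 1993 and 2158 of 5133 and 5899 in mutants and 1493 and 1559 of 6868 and 6839 in controls. As a share of chondrocytes, here the barcodes that met the condition together with the members that did not (2010 and 2182 in mutants, 1515 and 1579 in controls), the 4-gene cells made up 5.26% ± 0.268 against 4.12% ± 0.885 (ratio 1.28, exact permutation p = 0.3333). Members that met the condition made up 4.33% ± 0.0971 against 2.80% ± 1.03 of the barcodes that met it (ratio 1.55, exact permutation p = 0.3333). When the rule was applied after thinning each cell to 2000 UMIs, at 2 UMIs of the 4 genes and with the shallower cells left out (5000 and 5683 barcodes kept in mutants, 6664 and 6627 in controls), the share of chondrocytes was 3.34% ± 0.315 against 2.88% ± 0.836 and the libraries overlapped (ratio 1.16, exact permutation p = 0.6667), and the share of filtered barcodes was 1.08% ± 0.0609 against 0.610% ± 0.183. Most members, 326 of 349, held at least 3 UMIs of a marker list of another cell type. Not counted were the tendon markers, *Dcn*, *Cxcl12*, *Col1a1* and, outside the adipocyte list, *Adipoq*. The osteoblast list was met by 69 and 87 mutant and 43 and 59 control members. It counted *Ibsp*, which other chondrocytes also held, at 3253 to 4509 CPM. The erythroid list, whose *Hbb-bs* was high in free RNA, was met by 90 and 112 against 13 and 18. Without all these members the share of filtered barcodes was 0.0462% in mutants and 0.131% in controls, from 3, 2, 6 and 12 cells. Intervals cover counting error only, and digestion, which sets how many chondrocytes enter a library, cannot be told apart from their number in the tissue.

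Most of the difference in share lay with the members that held *Chrdl2*. Members that held it numbered 62 and 62 in mutants and 8 and 13 in controls, 1.13% ± 0.111 against 0.153% ± 0.0521 of filtered barcodes, and members without it numbered 40 and 57 against 45 and 62, 0.873% ± 0.132 against 0.781% ± 0.178. Under a rule on *Msmp*, *Myoc* and *Casr* alone, which neither asks for *Chrdl2* nor bars it, 56 and 74 cells in mutants and 46 and 65 in controls qualified. These were 3.09% ± 0.428 of chondrocytes in mutants and 3.58% ± 0.762 in controls (exact permutation p = 0.6667), and 1.17% ± 0.116 against 0.810% ± 0.199 of filtered barcodes (1.45 times, exact permutation p = 0.3333). Both this rule and the split by *Chrdl2* were chosen after the data were seen.

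The rule takes in cells for these genes, so their levels in the chondrocytes left outside it are given as a description, with no test. In other chondrocytes *Chrdl2* stood at 28.0 and 28.3 CPM in mutants and at 7.40 and 7.36 CPM in controls, and *Myoc* at 84.3 and 101 CPM against 30.8 and 61.2 CPM. *Casr* stood there at 12.1 and 14.8 CPM against 6.41 and 10.9 CPM. *Msmp* stood at 46.6 and 39.6 CPM against 67.5 and 32.4 CPM, and its genotypes overlapped.

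Beside other chondrocytes of the same libraries, the 4-gene cells were rich in *Prg4* and *Cilp2* and poorer in *Col2a1* and *Acan*. These levels describe the chosen cells and were not tested, and other chondrocytes were chosen by a minimum on *Col2a1*, *Acan* and related genes that members did not have to meet. *Prg4* stood between 10480 and 20860 CPM in 4-gene cells and between 3352 and 3852 CPM in other chondrocytes. *Cilp2*, of the cartilage intermediate layer proteins, stood at 670 to 817 CPM against 132 to 191 CPM, and *Igfbp5*, an insulin-like growth factor binding protein, at 648 to 2546 CPM against 74.6 to 105 CPM. *Col2a1* was lower, at 2847 to 11430 CPM against 21610 to 30750 CPM, and *Acan*, the gene of aggrecan, stood at 691 to 1309 CPM against 2588 to 3255 CPM. In members that met the same minimum *Col2a1* stood at 8653, 13585, 4638 and 8367 CPM and *Acan* at 1291, 1517, 996 and 939 CPM, in the order mutant 1, mutant 2, control 1 and control 2. *Comp* was at like levels in both, 5564 to 8060 and 6373 to 7136 CPM.

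By the lowest ratio over the 4 libraries, the genes at 50 CPM or more that stood highest over other chondrocytes were *Msmp*, *Dpt*, *Casr*, *Myoc*, *Igfbp5*, *Itih5*, *Hdac9*, *Ntn1*, *Sema3e*, *Creb5*, *Barx1*, *Pdgfra*, *Gab2*, *Nfib*, *Gsn*, *Cilp2*, *Vit*, *Erg*, *Arhgap6* and *Egfr*. Of these, *Msmp*, *Casr* and *Myoc* are genes of the rule, so their place was set by the choice of cells. *Creb5* encodes a transcription factor known for the expression of *Prg4* in articular chondrocytes, and it stood at 652 to 821 CPM, at least 4.58 times the level of other chondrocytes. *Erg*, a transcription factor of joint cartilage, stood at 250 to 287 CPM and at least 3.43 times higher. *Barx1*, a homeobox gene of developing joints, stood at 70.6 to 104 CPM and at least 4.54 times higher. *Hdac9*, a class IIa histone deacetylase, stood at 390 to 686 CPM and at least 6.67 times higher. *Ntn1* and *Sema3e*, which encode secreted guidance cues, were at least 5.73 and 5.19 times higher.

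Of the other sets of chondrocytes, the one with *Angptl7* and *Slurp1* (at least 4 UMIs of both together, at most 2 of *Chil1* and *Sfrp5* and not members, 194 cells) also held high *Prg4*, at 8466 to 28160 CPM, and *Cilp2*, at 722 to 981 CPM. It differed in *Dcn*, the gene of decorin, at 26280 to 34940 CPM against 5515 to 7995 CPM in 4-gene cells, and in *Thbs4*, a thrombospondin, at 41.3 to 105 CPM against 270 to 383 CPM. The sets with *Chil1* and *Sfrp5* (936 cells) and with *Epyc*, *Serpina1a* and Serpina1b (2005 cells) held *Prg4* at no more than 516 and 318 CPM.

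**Figure D2:**
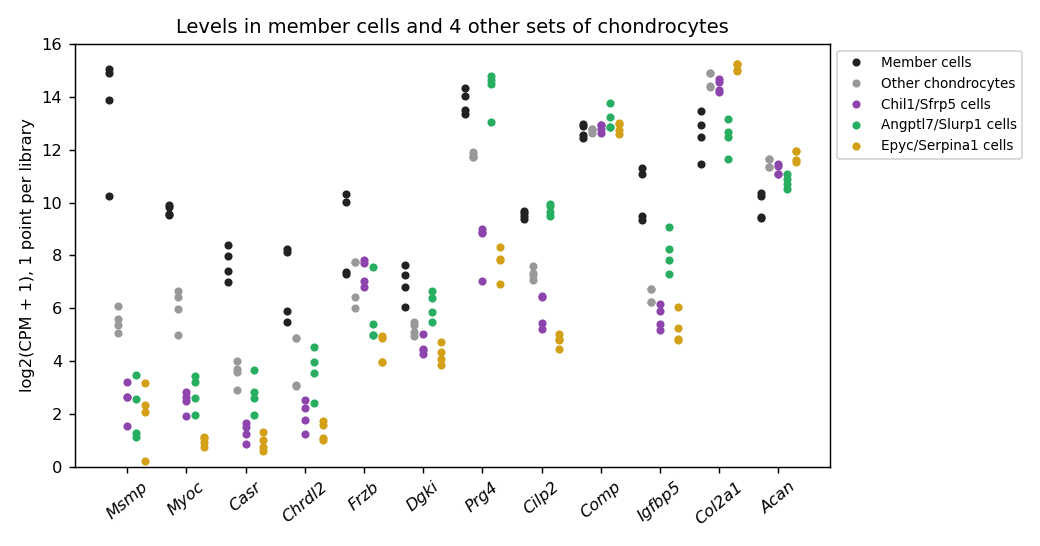
Levels of 12 genes, as log2(CPM + 1) with 1 point per library, in 4-gene cells (member cells) and in other chondrocytes, of which the sets with *Chil1* and *Sfrp5*, with *Angptl7* and *Slurp1* and with *Epyc* and *Serpina1* are also shown alone. *Prg4* and *Cilp2* stood high in 4-gene cells and in the set with *Angptl7* and *Slurp1*, and *Col2a1* was highest in the set with *Epyc*.

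Members with and without *Chrdl2* differed in level for several genes. *Igfbp5* stood at 27.1 and 76.9 CPM in mutant members with *Chrdl2* and at 2051 and 1299 CPM in those without, and at 141 and 193 CPM against 3046 and 2649 CPM in controls. *Gdf6*, which encodes a growth factor of the BMP family expressed at joints, stood at 20.7 CPM or less with *Chrdl2* and at 27.6 to 195 CPM without. *Acan* stood higher with *Chrdl2* in each library, at 973 to 1767 CPM against 539 to 787 CPM, and so did *Ogn*, which encodes the small proteoglycan osteoglycin, at 258 to 1485 CPM against 112 to 409 CPM. The rule and a split by one of its genes set these cells apart, so the values carry no test. The 8 and 13 control cells with *Chrdl2* make their levels the least certain.

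The expression of 4-gene cells was compared between genotypes on counts summed per library, with edgeR. Of 6119 genes tested, 273 were higher and 147 lower in mutants once p was adjusted over all of them, with 0.05 as the limit (4.46% and 2.4%). Among them were 3 genes that the rule used, *Chrdl2*, *Col10a1* and *Casr*, which are given without a test. Without control library 1 the counts were 143 and 75, without control library 2 they were 92 and 69, and DESeq2 called 93 and 56. Because *Chrdl2* cells were a larger part of mutant members, the leading genes and those whose call ended are also given for the rule on *Msmp*, *Myoc* and *Casr* alone, under which 3.69% and 1.89% of 6069 genes were higher and lower. *Chrdl2* itself was at a log2 fold change of 3.08 under that rule, beside 2.58 over all members. Passing under it thus does not set aside the difference in *Chrdl2* cells. Of the called genes tested there, 184 of 260 higher and 92 of 142 lower ones passed in the same direction. The calls lost without a control library and by DESeq2 were not only those near the limit. *Rgp1*, at an adjusted p of 8.25e-04 in edgeR, and *Gdf6*, at 0.00149, were not called by DESeq2. A small adjusted p thus does not by itself mark a certain gene. Among the members that met the chondrocyte condition 73 genes were higher and 71 lower (1.14% and 1.11% of 6402). Of 102 genes followed across alternatives, 50 no longer passed and 2 turned direction there. Not all of the 102 were called over all members or tested within the condition.

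Leaving aside the genes the rule used, 56 of 417 called genes, 41 higher and 15 lower, passed in the same direction with each library left out in turn, in DESeq2, within the chondrocyte condition, under the rule without *Chrdl2* and without the members rich in osteocalcin or hemoglobin. Those named below are *Rps3a3*, *Frzb*, *Ogn*, *Vegfa*, *Nrtn*, *Cnmd*, *Chadl*, *Ndufa4l2*, *Bnip3*, *Mif*, *Smoc2*, *Ier3*, *Pgk1*, *P4ha2*, *Omd*, *Xylt1*, *Tnfrsf11b*, *Nfkbia*, *Ldha*, *Csgalnact2*, *Scrg1*, *Acan* and *Gapdh*, which rose, and *Ecm1*, *Ntn1*, *Igfbp5*, *Runx2*, *Etv5*, *Smoc1*, *Glis3*, *Sema3d* and *Ccn1*, which fell. Every other gene named below as rising or falling in 4-gene cells did not pass, or was not tested, under at least 1 of these 8 settings.

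The rule without *Chrdl2* does not bar cells with *Chrdl2*, so the fit was also made in members with and without any *Chrdl2* UMI. Without it 1.15% of 5732 genes were higher and 0.785% lower, and with it 0.167% and 0.0167% of 5987. Of the called genes outside the rule, 387 were tested in members without *Chrdl2* and 96 of these passed in the same direction, while in members with it 9 of 384 did, where the control libraries held 8 and 13 cells. Of the 56 genes that passed the 8 settings, 22 also passed in members without *Chrdl2*. Those named below are *Rps3a3*, *Frzb*, *Ogn*, *Ndufa4l2*, *Bnip3*, *Mif*, *Smoc2*, *Ier3*, *P4ha2*, *Xylt1*, *Tnfrsf11b* and *Nfkbia*, which rose, and *Ecm1*, *Ntn1*, *Runx2* and *Smoc1*, which fell. The others did not pass or were not tested there, among them *Cnmd* at 0.80 (adjusted p = 0.0573), *Vegfa* at 1.66 (adjusted p = 0.0804), *Acan* at 0.36 (adjusted p = 0.279), *Igfbp5* at −0.73 (adjusted p = 0.0583) and *Ccn1* at −0.37 (adjusted p = 0.248). Fewer cells and another make-up of the members go together in this split, and the part of either was not tested.

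Apart from *Rps3a3*, a copy of a ribosomal protein gene, the largest increases among called genes were those of *Frzb* and *Grem1*, genes of secreted Wnt and BMP antagonists. *Rps3a3* stood at 390.5 and 291 CPM in mutants against 22.3 and 12.9 CPM in controls (log2 fold change 4.34, standard error 0.255, adjusted p = 2.14e-06), and since its reads may be divided among near-identical copies its value is uncertain. *Frzb* stood at 1041 and 1280 CPM in the mutant libraries and 163 and 157 CPM in the control libraries (log2 fold change 2.89, standard error 0.148, adjusted p = 1.27e-06). As for every called gene, the libraries of the genotypes did not overlap, and the lower mutant library was over 6 times the higher control. *Grem1*, the gene of the BMP antagonist gremlin 1 on chromosome 2 from 113576509 to 113589000, stood at 493 and 271 CPM in mutants against 90.8 and 24.2 CPM in controls (log2 fold change 2.88, standard error 0.395, adjusted p = 0.00142). Control library 2 was the lowest and mutant library 1 the highest. Under the rule without *Chrdl2* the log2 fold change of *Frzb* was 2.75 (adjusted p = 1.30e-08) and that of *Grem1* 3.52 (adjusted p = 2.31e-08). In members without any *Chrdl2* UMI *Frzb* was at 1.51 (adjusted p = 0.00991) and *Grem1* at 2.77 (adjusted p = 2.86e-04). *Chrdl2* itself, counted by the rule, stood at 306 and 276 CPM in mutants against 58.5 and 43 CPM in controls.

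*Inhba*, which encodes an activin subunit, stood at 87.2 and 344 CPM in mutants against 42.4 and 43 CPM in controls (log2 fold change 2.38, standard error 0.556, adjusted p = 0.026). Mutant library 2 was far above the other 3, and mutant library 1 about 2 times above the controls. *Bmp2*, a BMP ligand, rose as well, from 109 and 99.4 CPM to 161 and 167 CPM (log2 fold change 0.69, standard error 0.156, adjusted p = 0.0215). The ligand genes *Gdf6* and *Gdf10* fell. *Gdf6*, on chromosome 4 from 9844350 to 9862354, stood at 9.34 and 38.3 CPM in mutants against 137 and 161 CPM in controls (log2 fold change −2.57, standard error 0.358, adjusted p = 0.00149), and *Gdf10* at 76.3 and 56.5 CPM in mutants against 98.9 and 159.9 CPM in controls (log2 fold change −0.99, standard error 0.235, adjusted p = 0.028). Both also fell under the rule without *Chrdl2*, by log2 fold changes of −2.02 (adjusted p = 1.52e-04) and −0.96 (adjusted p = 0.0213). DESeq2 called none of these BMP genes, with *Grem1* at 2.77 (adjusted p = 0.0549), *Gdf6* at −2.63 (adjusted p = 0.0809), *Inhba* at 2.35 (adjusted p = 0.173) and *Bmp2* at 0.67 (adjusted p = 0.185), whereas it called *Frzb* at 2.87 (adjusted p = 4.25e-37). *Inhba* did not pass without control library 1, at 2.35 (adjusted p = 0.166), or without control library 2, at 2.40 (adjusted p = 0.205), nor did *Bmp2*, at 0.73 (adjusted p = 0.0718) and 0.62 (adjusted p = 0.143). *Gdf10* did not pass without control library 2, at −0.55 (adjusted p = 0.316). *Grem1*, *Gdf6* and *Frzb* passed without either control library and within the chondrocyte condition, where they were at 2.34 (adjusted p = 0.00381), −4.63 (adjusted p = 2.02e-05) and 2.49 (adjusted p = 3.06e-07).

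Of the 12 BMP and GDF ligand, receptor and antagonist genes tested besides *Chrdl2*, 3 rose and 2 fell, with a median log2 fold change of 0.234 beside 0.00843 over all genes tested. Of the BMP response genes, 2 of 8 rose and none fell. These were *Id2*, at 453 and 503 CPM in mutants against 333 and 172 CPM in controls (log2 fold change 0.99, standard error 0.213, adjusted p = 0.018), and *Id4*, at 64.6 and 50 CPM in mutants against 28.2 and 28.2 CPM in controls (log2 fold change 1.03, standard error 0.261, adjusted p = 0.0359), both inhibitors of basic helix-loop-helix transcription factors. Without control library 2 neither passed, at 0.56 (adjusted p = 0.0909) and 1.04 (adjusted p = 0.183). Of 12 Wnt ligands, receptors and inhibitors, *Frzb* and *Lgr6*, a receptor of R-spondins, rose and none fell. *Lgr6* stood at 318 and 261 CPM in mutants against 161 and 130.3 CPM in controls (log2 fold change 1.03, standard error 0.158, adjusted p = 0.00267), and at 0.87 (adjusted p = 0.0553) without control library 2. Of 3 Wnt response genes tested, 0 passed in edgeR and 0 in DESeq2, with 1 at an unadjusted p under 0.05, and *Axin2*, the usual reporter of the pathway, was below the filter at 10.9 and 10.4 CPM in mutants against 12.1 and 14.8 CPM in controls.

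Several matrix genes of cartilage rose. Of 19 cartilage collagen genes tested besides *Col10a1*, 4 rose and none fell. *Col2a1* rose at a log2 fold change of 1.20 (adjusted p = 0.0183), which did not hold without control library 1, at 0.77 (adjusted p = 0.0957), *Col9a3* at 1.10 (adjusted p = 0.0038) and *Col9a2* at 1.04 (adjusted p = 0.00335). *Col8a1*, a short-chain collagen, stood at 55.3 and 65 CPM in mutants against 26.2 and 18.8 CPM in controls (log2 fold change 1.49, standard error 0.271, adjusted p = 0.00654). Under the rule without *Chrdl2* the change of *Col2a1* was 0.70 (adjusted p = 0.0436) and that of *Col8a1* 1.09 (adjusted p = 0.0737), which ends the call of the latter, as does leaving out control library 2, at 1.24 (adjusted p = 0.11). Within the chondrocyte condition the 3 cartilage fibril genes did not pass, with *Col2a1* at 0.77 (adjusted p = 0.0982), *Col9a3* at 0.62 (adjusted p = 0.0542) and *Col9a2* at 0.59 (adjusted p = 0.109). The condition is built on these genes and leaves fewer cells, and the part of either in the lost calls was not tested. *Col10a1*, which the rule limits, stood at 123 and 109 CPM in mutants against 24.2 and 32.2 CPM in controls.

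Of 16 matrix proteoglycan genes, 7 rose and none fell. *Ogn* stood at 1053 and 968 CPM in the mutant libraries and 188 and 199 CPM in the control libraries (log2 fold change 2.41, standard error 0.131, adjusted p = 1.27e-06) and the genotypes were far apart. *Omd*, the gene of osteomodulin, rose by a log2 fold change of 1.09 (adjusted p = 0.00117), *Acan* by 0.89 (adjusted p = 0.00117), and *Hapln1*, which encodes the link protein of aggrecan and hyaluronan, by 0.85 (adjusted p = 0.00449). *Prg4* stood at 20860 and 17026 CPM in mutants against 11684 and 10484 CPM in controls (log2 fold change 0.80, standard error 0.0996, adjusted p = 7.12e-04). *Sdc4* and *Snorc* were the other 2. All 7 also rose under the rule without *Chrdl2*, with *Ogn* at 2.29 (adjusted p = 2.31e-08) and *Prg4* at 1.11 (adjusted p = 9.66e-08). Within the chondrocyte condition 3 of the 7 passed, *Ogn* at 2.27 (adjusted p = 3.06e-07), *Omd* at 0.68 (adjusted p = 0.015) and *Acan* at 0.54 (adjusted p = 0.0323), while *Hapln1* was at 0.57 (adjusted p = 0.0561), *Snorc* at 0.27 (adjusted p = 0.303), *Sdc4* at 0.43 (adjusted p = 0.102) and *Prg4* at 0.43 (adjusted p = 0.0828). There 2 others of the list, *Dcn* and *Lum*, the genes of decorin and lumican, passed as lower, at −0.60 (adjusted p = 0.031) and −0.93 (adjusted p = 0.0113).

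*Cnmd*, the gene of chondromodulin, an inhibitor of vessel growth in cartilage on chromosome 14 from 79875120 to 79899615, stood at 362 and 434 CPM in the mutant libraries and 113 and 101 CPM in the control libraries (log2 fold change 1.93, standard error 0.155, adjusted p = 2.50e-05). Each mutant library was over 3 times each control. The rule without *Chrdl2* gave 1.52 (adjusted p = 2.59e-05) and the chondrocyte condition 1.52 (adjusted p = 3.06e-04), while in members without any *Chrdl2* UMI the call ended, at 0.80 (adjusted p = 0.0573). *Chadl*, which encodes a leucine-rich repeat protein of cartilage, stood at 142 and 162 CPM in mutants against 22.2 and 53.7 CPM in controls (log2 fold change 1.93, standard error 0.267, adjusted p = 0.00146). Of 24 matrix glycoprotein genes, 5 rose and 3 fell: *Cnmd*, *Smoc2*, *Crispld1*, *Scrg1* and *Comp* rose, and *Smoc1*, *Tnxb* and *Cilp* fell. *Smoc2* and *Smoc1*, close relatives that encode secreted calcium-binding proteins, went opposite ways, *Smoc2* at 595 and 487 CPM in mutants against 246 and 184 CPM in controls (log2 fold change 1.38, standard error 0.155, adjusted p = 3.74e-04) and *Smoc1* at 210.1 and 292 CPM in mutants against 631 and 453 CPM in controls (log2 fold change −1.06, standard error 0.177, adjusted p = 0.00406). In members with *Chrdl2*, few of them in controls, *Smoc2* and *Smoc1* each turned direction. The fall of *Cilp* (log2 fold change −0.54, standard error 0.146, adjusted p = 0.0453) did not pass under the rule without *Chrdl2*, at −0.16 (adjusted p = 0.534). Within the chondrocyte condition *Cnmd*, *Smoc2* and *Scrg1* rose and *Smoc1*, *Fn1* and *Ecrg4* fell, whereas *Comp* was at 0.12 (adjusted p = 0.721), *Crispld1* at 0.63 (adjusted p = 0.109), *Tnxb* at −0.40 (adjusted p = 0.652) and *Cilp* at −0.59 (adjusted p = 0.122). Of glycosaminoglycan synthesis genes 3 of 19 rose, *Xylt1*, *Csgalnact2* and *Papss2*, which serve chain initiation, elongation and sulfate supply, with log2 fold changes of 1.08, 0.98 and 0.84. Of collagen modification genes 3 of 16 rose, the prolyl hydroxylase genes *P4ha2* (1.13) and *P4ha1* (0.58) and *Loxl2* (0.93). *P4ha1* did not pass under the rule without *Chrdl2*, at 0.49 (adjusted p = 0.085). Within the chondrocyte condition *Papss2* was at 0.60 (adjusted p = 0.137), *P4ha1* at 0.29 (adjusted p = 0.426) and *Loxl2* at 1.06 (adjusted p = 0.0607), and *Loxl3* passed as lower.

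**Figure D3:**
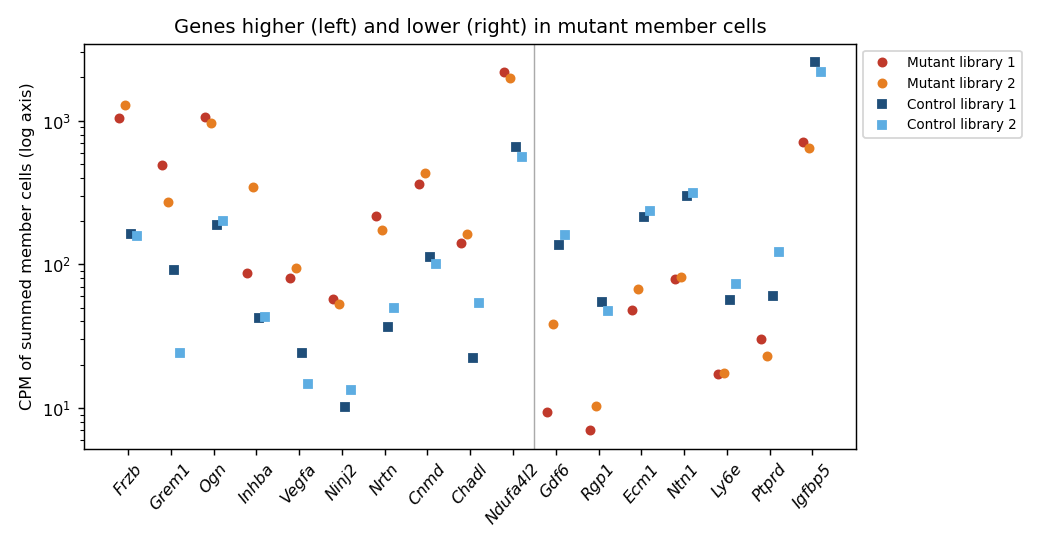
CPM on a log axis of genes named among the largest increases (left) and decreases (right) in mutant 4-gene cells, with 1 point per library; circles are mutant and squares control libraries. The genes shown were chosen for no overlap between genotypes, which also held for all 273 higher and 147 lower called genes. *Inhba* and *Gdf6* spread widely between the mutant libraries (87.2 and 344 CPM, and 9.34 and 38.3 CPM).

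Hypoxia and glycolysis genes formed the list with the most calls. Of 28 tested, 21 rose and none fell, with a median log2 fold change of 1.01. *Vegfa*, the main growth factor of vessels, stood at 80.2 and 93.6 CPM in the mutant libraries and 24.2 and 14.8 CPM in the control libraries (log2 fold change 2.25, standard error 0.267, adjusted p = 5.41e-04). *Slc2a1* and *Slc16a3*, the transporters of glucose and lactate, stood at 91 and 99.4 CPM in mutants against 46.4 and 24.2 CPM in controls (1.54 on the log2 scale) and 87.2 and 81.9 CPM in mutants against 38.3 and 14.8 CPM in controls (1.81). *Slc16a3*, at 1.17, and *Slc2a1* did not pass without control library 2, and *Slc2a1* was not called within the chondrocyte condition. *Bnip3*, a mitophagy gene induced by low oxygen, stood at 209 and 213 CPM in mutants against 86.8 and 49.7 CPM in controls (log2 fold change 1.71, standard error 0.204, adjusted p = 5.41e-04), and *Mif*, which encodes a cytokine and is a known target of hypoxia-inducible factors, at 653 and 659 CPM in mutants against 244 and 173 CPM in controls (log2 fold change 1.70, standard error 0.149, adjusted p = 4.50e-05). Among glycolytic enzymes *Pgk1* rose by 1.16 (adjusted p = 5.41e-04), *Ldha* by 0.99 (adjusted p = 5.41e-04) and *Gapdh* by 0.86 (adjusted p = 0.00196). *Ndufa4l2*, a mitochondrial gene known as a target of hypoxia-inducible factors and outside the list, stood at 2197 and 1991 CPM in mutants against 659.7 and 558 CPM in controls (log2 fold change 1.82, standard error 0.124, adjusted p = 7.44e-06). *Hif1a* itself rose by 0.72 (adjusted p = 0.012), and was called neither by DESeq2 nor within the chondrocyte condition.

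Other chondrocytes showed changes of the same list. There the test called 31% of 6809 genes higher and 30.6% lower in mutants. The median of the 30 list genes tested was 1.18 and all 30 passed, with *Vegfa* at 1.97 (adjusted p = 5.55e-12) and *Ndufa4l2* at 1.60 (adjusted p = 1.55e-11). The difference of the genotype effect between the 2 sets of cells was 0.33 (adjusted p = 0.616) for *Vegfa* and 0.27 (adjusted p = 0.308) for *Ndufa4l2*. Under the rule without *Chrdl2*, 20 of 27 list genes rose and none fell, and within the chondrocyte condition 13 of 28 rose and none fell.

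**Figure D4:**
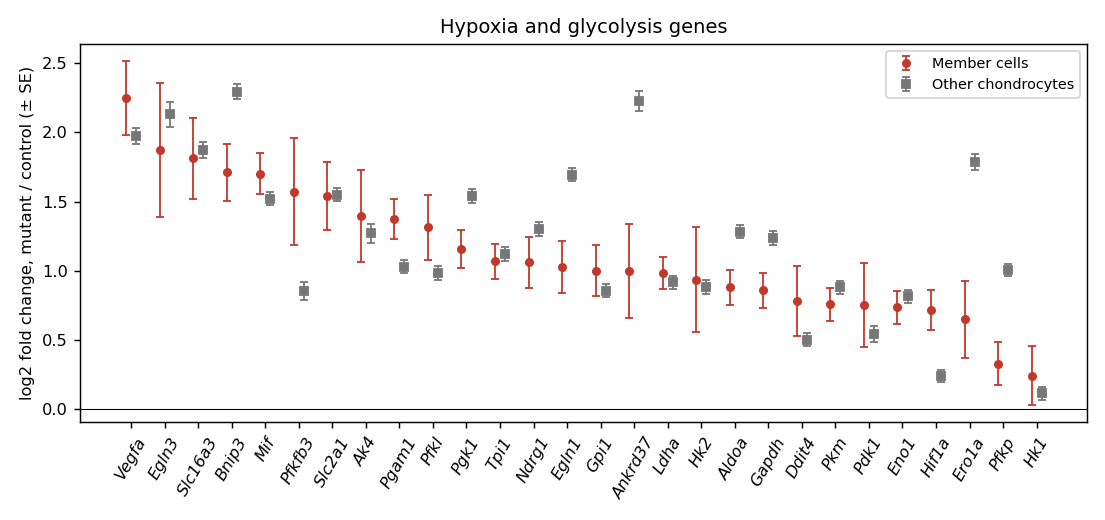
log2 fold change of mutants over controls with its standard error for the 28 hypoxia and glycolysis genes tested, in 4-gene cells (member cells, circles) and other chondrocytes (squares). In 4-gene cells 21 of the 28 passed and all of these were higher in mutants.

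Of 26 immediate early and heat shock genes tested, 13 immediate early genes rose and 4 heat shock genes fell. *Ier3* stood at 313 and 419 CPM in mutants against 165 and 144 CPM in controls (log2 fold change 1.28, standard error 0.168, adjusted p = 0.0011), and *Junb*, a subunit of the AP-1 transcription factor, at 1122 and 1066 CPM in mutants against 678 and 602 CPM in controls (log2 fold change 0.81, standard error 0.118, adjusted p = 0.00185). *Fos* rose by 0.67 (adjusted p = 0.00488) and *Egr1* by 0.48 (adjusted p = 0.035). The 4 that fell were the chaperone genes *Hsph1*, at −1.30 (adjusted p = 0.00449), *Hspa1a*, *Hsp90aa1* and *Hspa1b*. The median over the list was 0.498 in 4-gene cells and 0.470 in other chondrocytes. Within the chondrocyte condition 1 immediate early gene, *Ier3*, rose and 2 heat shock genes, *Hspa1a* and *Hspa1b*, fell, whereas *Junb* was at 0.45 (adjusted p = 0.0737) and *Fos* at 0.33 (adjusted p = 0.213). *Egr1* did not pass without the members rich in osteocalcin or hemoglobin, at 0.28 (adjusted p = 0.175). Of 25 genes of the unfolded protein response and secretion, 4 fell and 1 rose: *Sdf2l1* (−1.08), *Creb3l1* (−0.89), *Manf* (−0.74) and *Hspa5* (−0.46) fell, and *Ddit3*, which encodes a stress transcription factor, rose (0.99). *Hspa5* did not pass under the rule without *Chrdl2*, at −0.35 (adjusted p = 0.154).

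Of 12 inflammatory and acute-phase genes tested, 4 rose and none fell. *Tnfrsf11b*, the gene of osteoprotegerin, a decoy receptor that restrains osteoclasts, stood at 762 and 649 CPM in mutants against 299 and 376 CPM in controls (log2 fold change 1.08, standard error 0.148, adjusted p = 0.00142). *Nfkbia* and *Nfkbiz*, feedback genes of NF-κB, rose by 0.99 (adjusted p = 0.00117) and 1.02 (adjusted p = 0.00343), and *C4b*, a complement gene, by 0.78 (adjusted p = 0.028). Of the lipid and lysosomal list 4 of 16 genes tested also rose with none lower, among them *Hmgcs1* (1.23, adjusted p = 0.00467), *Idi1* and *Insig1*. Under the rule without *Chrdl2* *Hmgcs1* alone of the 4 passed, at 1.33 (adjusted p = 0.00673).

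Receptors and transcription factors changed in both directions. Of the Hedgehog and PTHrP loop, 3 of 11 rose: *Gli1*, the reporter gene of Hedgehog signalling, at 28.8 and 27.3 CPM in mutants against 12.1 and 10.8 CPM in controls (log2 fold change 1.32, standard error 0.344, adjusted p = 0.0394), *Pth1r* (0.73, adjusted p = 0.0359) and *Gas1* (0.70, adjusted p = 0.0279). *Pth1r* did not pass under the rule without *Chrdl2*, at 0.43 (adjusted p = 0.248), and without control library 2 none of the 3 passed. *Fgfr3*, the fibroblast growth factor receptor of chondrocytes, rose by 1.05 (adjusted p = 0.00406), and *Fgfr1* fell by a log2 fold change of −0.89 (adjusted p = 0.0104), as did *Etv5*, a target of this pathway, at 46.7 and 42.2 CPM in mutants against 101 and 141 CPM in controls (log2 fold change −1.45, standard error 0.207, adjusted p = 0.00164). Of 35 chondrocyte transcription factors, *Nfatc2* (1.24, adjusted p = 0.0051), *Klf2* (0.92, adjusted p = 0.00885), *Sox9* (0.85, adjusted p = 0.00452) and *Hif1a* rose, while *Runx2* and *Glis3* fell. *Runx2*, the factor of hypertrophy and bone formation, stood at 35 and 33.1 CPM in mutants against 88.8 and 121 CPM in controls (log2 fold change −1.63, standard error 0.215, adjusted p = 0.00117). Of 11 genes of the insulin-like growth factor system, *Irs2*, *Irs1* and *Igf1r* rose and *Igfbp5* fell, the last at 713 and 648 CPM in the mutant libraries and 2546 and 2170 CPM in the control libraries (log2 fold change −1.76, standard error 0.121, adjusted p = 7.44e-06). *Fgfr3* and *Fgfr1* were at 0.95 (adjusted p = 0.0648) and −0.71 (adjusted p = 0.12) without control library 2, and *Fgfr3* was at 0.67 (adjusted p = 0.109) within the chondrocyte condition. *Irs1* did not pass under the rule without *Chrdl2*, at 0.24 (adjusted p = 0.641).

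Of 15 TGF-beta ligands, receptors and binders, 3 rose and none fell, among them *Skil* (0.93, adjusted p = 0.0151) and *Tgfb2* (0.78, adjusted p = 0.0474). Neither of these passed without control library 2. Calcium sensing and channel genes, the group of *Casr*, held 2 that rose of 21 tested besides it, *Calm2* (0.43, adjusted p = 0.047) and *Gnas* (0.40, adjusted p = 0.049), neither of which passed under the rule without *Chrdl2*, at 0.47 (adjusted p = 0.0922) and 0.39 (adjusted p = 0.0886). *Casr* stood at 126 and 168 CPM in mutants against 333 and 249.9 CPM in controls among members. Its counts went into the rule. Of the 8 diacylglycerol kinase and protein kinase C genes tested, *Dgkh* rose (0.77, adjusted p = 0.0345) and *Dgki* fell, at 112 and 65 CPM in mutants against 153 and 199 CPM in controls (log2 fold change −1.01, standard error 0.236, adjusted p = 0.0263). The fall of *Dgki* did not pass under the rule without *Chrdl2*, at −0.55 (adjusted p = 0.202).

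Of 15 Hippo components and YAP/TAZ targets tested in the 4-gene cells, 1 fell and none rose, with a median of 0.0514. It was *Ccn1*, a matricellular target of YAP1, at 377 and 415 CPM in mutants against 654 and 679 CPM in controls (log2 fold change −0.72, standard error 0.121, adjusted p = 0.00412). *Ccn2*, the other well-known target, stood at 2092 and 1536 CPM in mutants against 1628 and 1268 CPM in controls (0.36, adjusted p = 0.208), and *Yap1* at 65.4 and 59.1 CPM in mutants against 59.5 and 55.1 CPM in controls (0.14, adjusted p = 0.744). In the list of CCN and angiogenesis modulators 3 rose (*Vegfa*, *Cnmd* and *Angptl2*) and 3 fell (*Ntn1*, *Sema3d* and *Ccn1*) of 9. *Ntn1*, the gene of netrin-1, stood at 78.6 and 81.2 CPM in the mutant libraries and 301 and 316 CPM in the control libraries (log2 fold change −1.92, standard error 0.145, adjusted p = 1.56e-05). *Sema3d*, a semaphorin gene, fell at −1.001 (adjusted p = 0.00441).

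The counts of the other lists are given beside 4.46% of genes higher and 2.4% lower over all 6119 tested. No list was tested as a set. Within the chondrocyte condition no gene passed of the lists of BMP response, TGF-beta, Hedgehog and PTHrP, calcium sensing, unfolded protein response, lipid handling, proteases, interferon or actin genes. Of 5 cell cycle genes 0 passed in edgeR and 0 in DESeq2, and 3 had an unadjusted p under 0.05. Of 21 proteases and inhibitors 3 rose, among them *Adamts1* and *Serpine2*, and *Mmp3* fell. Of 6 interferon response genes *Ifi27* rose and *H2-D1* fell, and of 13 integrins and matrix receptors *Sdc4* rose and *Ddr2* fell. Of 24 actin and contractile genes *Anxa2* rose and *S100a4* and *Tpm1* fell, and of 14 mineralization genes *Bglap*, *Bglap2* and *Ank* fell. *H2-D1*, *Ddr2*, *Tpm1* and *Ank* did not pass under the rule without *Chrdl2*, at −0.41 (adjusted p = 0.15), −0.55 (adjusted p = 0.0853), −0.67 (adjusted p = 0.0853) and −0.28 (adjusted p = 0.319).

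The remaining decreases included *Ecm1*, an extracellular matrix gene of skin and cartilage, at 48.2 and 67.6 CPM in mutants against 214 and 236 CPM in controls (log2 fold change −1.92, standard error 0.186, adjusted p = 1.24e-04), and *Mmp3*, the gene of stromelysin, at 39.7 and 33.8 CPM in mutants against 143 and 90 CPM in controls (log2 fold change −1.60, standard error 0.229, adjusted p = 0.0017). *Ptprd*, a receptor phosphatase gene, stood at 30.1 and 23.1 CPM in mutants against 60.5 and 121 CPM in controls (log2 fold change −1.81, standard error 0.304, adjusted p = 0.00412), and *Ly6e* at 17.1 and 17.5 CPM in mutants against 56.5 and 72.6 CPM in controls (log2 fold change −1.89, standard error 0.264, adjusted p = 0.00149). *Ly6e* did not reach the filter on low counts, and so was not tested, within the chondrocyte condition or without the members rich in osteocalcin or hemoglobin. *Ptprd* did not pass without control library 2, at −1.15 (adjusted p = 0.116). Of 20 genes of oxidative stress and metal handling, 5 fell and none rose: *Mt2*, a metallothionein gene (−1.62, adjusted p = 0.0045), *Gpx3* (−0.97, adjusted p = 0.016), *Prdx2*, *Sod3* (−0.62, adjusted p = 0.0377) and *Fth1* (−0.41, adjusted p = 0.0442). *Gpx3*, *Sod3* and *Fth1* did not pass under the rule without *Chrdl2*, at −0.67 (adjusted p = 0.0962), −0.18 (adjusted p = 0.66) and −0.28 (adjusted p = 0.174). *Rgp1* stood at 7 and 10.4 CPM in mutants against 54.5 and 47 CPM in controls (log2 fold change −2.46, standard error 0.31, adjusted p = 8.25e-04), and since its locus contains *Msmp* on the opposite strand, reads of the 2 genes may not be fully separated and its value is uncertain.

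Some decreases moved when few cells were left out. *Bglap* stood at 57.2 and 113 CPM in the mutant libraries and 246 and 7697 CPM in the control libraries (log2 fold change −5.53, standard error 1.08, adjusted p = 0.0104) and *Bglap2* at 49.5 and 66.7 CPM in mutants against 138 and 3449 CPM in controls, where control library 2 held the cell rich in osteocalcin. Without the 6 members rich in osteocalcin or hemoglobin their log2 fold changes were −2.15 (adjusted p = 9.75e-10) and −1.79 (adjusted p = 5.55e-05). The share set for free RNA was 1.20% and 2.29% in the mutant libraries and 3.38% and 5.79% in the control libraries. In control library 2 single markers gave from 0.616% to 45.05%. The fit with free RNA subtracted gave no value for *Bglap* or *Bglap2*, so the part of free RNA in their fall was not tested. *Blvrb*, an erythroid gene (log2 fold change −2.03, standard error 0.212, adjusted p = 2.17e-04), moved to −0.01 (adjusted p = 0.991) without these members, *Hba-a1*, a hemoglobin gene, from −1.74 (adjusted p = 4.50e-05) to 0.79 (adjusted p = 0.0316), and *Prdx2* from −0.66 (adjusted p = 0.0119) to 0.16 (adjusted p = 0.676). *C1qtnf12* (−1.79, adjusted p = 0.00129) was at −0.81 (adjusted p = 0.102). *Frzb*, *Grem1* and *Gdf6* kept their calls there, at 2.702 (adjusted p = 8.41e-14), 2.698 (adjusted p = 1.73e-07) and −2.51 (adjusted p = 6.44e-07). *Gli1*, *Id4*, *Irs1*, *Igf1r*, *Papss2*, *Tgfb2*, *Dgkh*, *P4ha1*, *Calm2*, *Gnas*, *Comp*, *Anxa2*, *Ifi27*, *Insig1*, *Hsp90aa1* and *Tpm1* did not pass without these members, with adjusted p between 0.0506 (*Ifi27*) and 0.467 (*Tpm1*), and *Ly6e* and *Rgp1* were not tested there.

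Whether the genotype effect in 4-gene cells differed from that in other chondrocytes was tested in 1 fit of both sets with the library as a block. Of 7178 genes, the effect was higher in 4-gene cells for 164 (2.28%) and lower for 166 (2.31%). Under the rule without *Chrdl2* these counts were 157 and 199. In members without any *Chrdl2* UMI they were 74 and 99 of 7135 (1.04% and 1.39%), and the differences named below that did not pass there are given with their values. Several cartilage genes were among the differences, although other chondrocytes were chosen by a condition on *Col2a1*, *Acan*, *Col9a2*, *Cnmd* and related genes that members did not have to meet. Other chondrocytes also had no limit on *Col10a1*, which stood there at 5945 and 5376 CPM in mutants and 3117 and 2824 CPM in controls. Their set with *Epyc* held 361 and 379 cells in mutants and 615 and 650 in controls. The part of this make-up in the differences was not tested. *Cnmd* rose in 4-gene cells and fell in other chondrocytes, where it stood at 1587 and 1524 CPM in mutants against 2339 and 2285 CPM in controls (−0.48, adjusted p = 8.87e-07), a difference of log2 2.46, standard error 0.155, adjusted p = 4.14e-04. *Col2a1* stood at 21612 and 21961 CPM in mutants against 30748 and 30447 CPM in controls in other chondrocytes (−0.40, adjusted p = 2.63e-06), a difference of 1.72 (adjusted p = 0.0164). For *Acan* the difference was 1.16 (adjusted p = 0.00178), for *Col9a2* 1.80 (adjusted p = 0.00247) and for *Fgfr3* 1.46 (adjusted p = 0.00327). With members held to the same condition the differences were 2.03 (adjusted p = 1.37e-05) for *Cnmd*, 1.23 (adjusted p = 0.00229) for *Col2a1*, 0.79 (adjusted p = 0.00197) for *Acan*, 1.32 (adjusted p = 3.45e-04) for *Col9a2* and 1.07 (adjusted p = 0.00627) for *Fgfr3*. In members without *Chrdl2* the difference was 1.33 (adjusted p = 0.00213) for *Cnmd* and 1.08 (adjusted p = 0.0545) for *Fgfr3*.

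The largest positive differences at 50 CPM or more were those of *Ninj2*, *Chadl*, *Cnmd*, *Smpd3*, *Nrtn* and *Angptl2*. *Ninj2*, which encodes the membrane protein ninjurin 2, stood at 57.6 and 52.6 CPM in mutants against 10.1 and 13.4 CPM in controls in 4-gene cells and at 62.1 and 58.1 CPM in mutants against 129 and 123 CPM in controls in other chondrocytes, a difference of log2 3.24, standard error 0.273, adjusted p = 0.00131. *Nrtn*, the gene of the growth factor neurturin, rose in 4-gene cells (log2 fold change 2.15, standard error 0.213, adjusted p = 1.46e-04) and was at 0.04 (adjusted p = 0.61) in other chondrocytes. *Chadl* and *Angptl2* rose in 4-gene cells and fell in other chondrocytes, by differences of 2.57 (adjusted p = 0.00317) and 2.00 (adjusted p = 0.00676). *Smpd3*, a sphingomyelinase gene, did not pass within 4-gene cells (1.15, adjusted p = 0.0957), where control library 1 was at 12.1 and control library 2 at 68.5 CPM, and it fell in other chondrocytes (−1.21, adjusted p = 2.66e-10). In members without *Chrdl2* the differences of *Smpd3* and *Nrtn* did not pass, at 0.44 (adjusted p = 0.771) and 1.22 (adjusted p = 0.055).

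*Frzb* and *Ogn* rose in both sets, and over all members the rise was larger in 4-gene cells. *Frzb* stood at 214 and 214 CPM in mutants against 63 and 84.2 CPM in controls in other chondrocytes (1.62, adjusted p = 2.25e-09), and the difference was log2 1.31, standard error 0.176, adjusted p = 0.00695. For *Ogn* it was 1.30 (adjusted p = 0.00156). Neither difference passed in members without *Chrdl2*, at −0.06 (adjusted p = 0.967) and 0.42 (adjusted p = 0.378). *Prg4* also rose more in 4-gene cells (0.60, adjusted p = 0.0083), which did not hold within the chondrocyte condition, at 0.22 (adjusted p = 0.366), while *Omd* rose less (−0.83, adjusted p = 0.0127).

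The largest negative differences were those of *S100a4*, *Epdr1*, *Mt2*, *Atf5*, *Rgp1* and *Hba-a1*. *S100a4*, which encodes a calcium-binding protein of motile cells, stood at 179.6 and 302 CPM in mutants against 522 and 653 CPM in controls in 4-gene cells and at 223 and 277 CPM in mutants against 93 and 116 CPM in controls in other chondrocytes, so that it fell in the former (−1.26, adjusted p = 0.00399) and rose in the latter (1.35, adjusted p = 3.76e-08). The difference was log2 −2.58, standard error 0.159, adjusted p = 4.14e-04, and the fall within 4-gene cells did not pass without control library 2, at −1.08 (adjusted p = 0.068). *Epdr1* (−1.68, adjusted p = 0.00437) and *Mt2* also fell in 4-gene cells and rose in other chondrocytes, at 0.78 (adjusted p = 2.58e-07) and 0.68 (adjusted p = 9.77e-07). *Atf5*, a stress transcription factor gene, was at 66.1 and 79.9 CPM in mutants against 107 and 88.7 CPM in controls in 4-gene cells (−0.37, adjusted p = 0.286) and rose in other chondrocytes (1.85, adjusted p = 4.47e-12). *Igfbp5* fell in both sets, over all members more in 4-gene cells (−1.32, adjusted p = 0.00195), and *Ecm1* and *Ntn1* differed by −1.90 (adjusted p = 0.00137) and −1.89 (adjusted p = 0.00198). In members without *Chrdl2* the differences of *Igfbp5* and *Rgp1* did not pass, at −0.32 (adjusted p = 0.463) and −1.46 (adjusted p = 0.108).

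**Figure D5:**
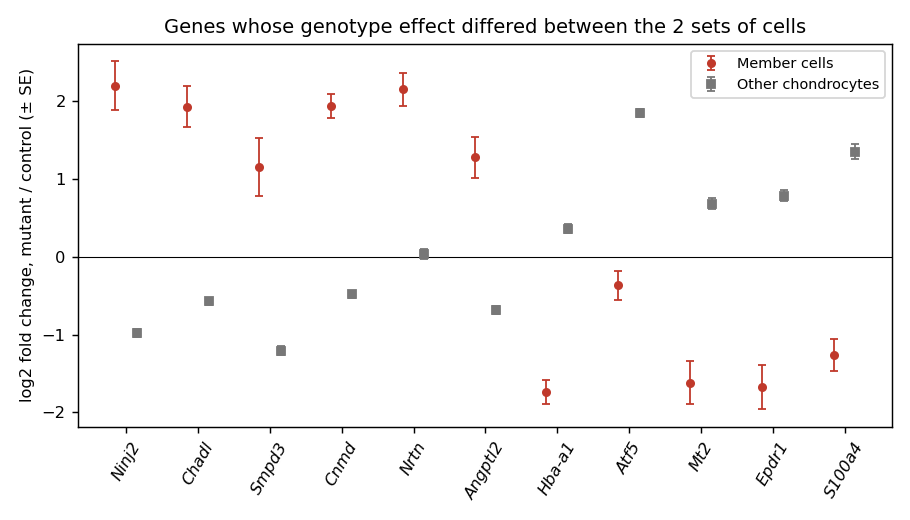
log2 fold change of mutants over controls with its standard error, in 4-gene cells (member cells, circles) and other chondrocytes (squares), for genes named by the size of the difference between the 2 effects (*Rgp1*, not tested in other chondrocytes alone, is not shown). *Ninj2*, *Chadl*, *Cnmd* and *Angptl2* rose in 4-gene cells and fell in other chondrocytes, and *S100a4*, *Mt2* and *Epdr1* did the reverse, while *Hba-a1* in 4-gene cells moved to 0.79 (adjusted p = 0.0316) without the 6 members rich in osteocalcin or hemoglobin.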

How the data were processed

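Droplet-based 3′ scRNA-seq was made from non-hematopoietic cells of the metaphysis of femur and tibia. The authors trimmed reads with cutadapt 3.5 and aligned them with STARsolo 2.7.10a to GRCm39 with GENCODE M26 and the CreERT2 and reporter sequences, as given in the study's methods and processing notes. They deposited unfiltered expected counts (estimated counts) per gene and barcode over exons and introns, with multi-gene reads shared out by expectation maximization. These are not normalized and need not be whole, and sums were rounded before the tests. The libraries hold 69636600 and 78953446 UMIs in mutants and 83453507 and 85899079 UMIs in controls. No column of an unknown sample was used.

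Other chondrocytes are barcodes with at least 20 UMIs per 10000 of *Col2a1*, *Acan*, *Col9a1*, *Col9a2*, *Col9a3*, *Hapln1*, *Matn3* and *Cnmd*, at least 4 of the 8 detected, no *Cdh5* or *Ptprc*, and not members. No doublet caller was run: barcodes with *Cdh5*, *Ptprc* or over 5% hemoglobin were barred, and members rich in osteocalcin or hemoglobin were left out as an alternative. Counts were summed per library. The test across genes was the quasi-likelihood test of edgeR 4.0.16 in R 4.3.3, with TMM scaling, on 2 mutant against 2 control sums. Genes had to pass filterByExpr and to be counted in 20% or more of the members of either genotype, and adjusted p (Benjamini-Hochberg) is over all of them. The standard error is the size of the log2 fold change over the root of F. The difference from other chondrocytes was fitted with the library as a block. DESeq2 1.42.0 was an alternative. Shares were compared with exact permutation tests, whose p cannot be under 0.3333 with 2 libraries per genotype. Scripts were tested on simulated counts. Python 3.11.15, numpy 2.4.6, scipy 1.17.1 and pandas 2.3.3 were used, and gene positions are from GENCODE M39.

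The members, the gene lists (30 lists, 747 genes) and the tests were chosen with earlier results of these data known, so their directions are not independent evidence. Genes that the rule used were left out of the list counts. The genes named are those of the rule with *Frzb* and *Dgki*, *Lats2*, *Lats1* and *Cre-ERT2*, the 12 largest increases and decreases (annotated genes at 50 CPM or more with a log2 fold change of at least 1, an adjusted p of at most 0.05 and no overlap between genotypes), up to 4 called genes of each list, the 6 largest differences from other chondrocytes in each direction, and the 20 genes highest over other chondrocytes. Further list members, and the genes of other cell types, were named after their values were seen. Some genes that meet these rules are not reported here. The study calls the 2 libraries of each genotype biological replicates. The sources used here do not say how many animals each holds, and p-values measure the spread between these libraries. The labels name no batch.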

Additional observations from a re-analysis of the deposited data

Results flagged for a closer look

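For 12 genes the effect of the genotype differed between 4-gene cells and other chondrocytes by the test of the difference itself, and these were the 6 with the largest difference in each direction at 50 CPM or more. On the log2 scale the effect was higher in 4-gene cells by 3.24 for *Ninj2*, 2.57 for *Chadl*, 2.46 for *Cnmd*, 2.44 for *Smpd3*, 2.17 for *Nrtn* and 2.00 for *Angptl2*. It was lower in 4-gene cells by a difference of −2.58 for *S100a4*, −2.41 for *Epdr1*, −2.26 for *Mt2*, −2.18 for *Atf5*, −2.11 for *Rgp1* and −2.05 for *Hba-a1*. The adjusted p from edgeR was between 4.14e-04 and 0.0164. Other chondrocytes had no limit on *Col10a1*, and the part of their make-up in these differences was not tested. *Cnmd* is one of the genes by which other chondrocytes were chosen, and with members held to the same condition its difference was 2.03 (adjusted p = 1.37e-05). *Hba-a1* stood at a difference of 0.43 (adjusted p = 0.545) within that condition, and its fall within 4-gene cells moved to 0.79 (adjusted p = 0.0316) without the 6 members rich in osteocalcin or hemoglobin. In members without *Chrdl2* the differences of *Smpd3*, *Nrtn* and *Rgp1* did not pass, at 0.44 (adjusted p = 0.771), 1.22 (adjusted p = 0.055) and −1.46 (adjusted p = 0.108). *Rgp1* holds *Msmp* on its opposite strand. *Atf5* and *Smpd3* did not pass the test within 4-gene cells alone.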

How the results depend on the processing

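The number of genes called depended on the processing more than the directions did. Against 273 higher and 147 lower genes, no filter on low counts gave 524 and 379, DESeq2 93 and 56, the rule at 8 UMIs 100 and 64, the rule after thinning to 2000 UMIs 141 and 91, and equal numbers of members 144 and 91. With free RNA subtracted the counts were 236 and 126. Leaving out members of high UMIs gave 161 higher genes, and leaving out each library in turn gave 92 to 242 higher and 69 to 135 lower genes. Alternatives chosen after the data were seen gave 66 and 45 in members without *Chrdl2*, 10 and 1 in members with it, 73 and 71 in members that met the chondrocyte condition, and 74 and 30 in members with *Myoc*. The 330 genes whose effect differed from other chondrocytes became 158 at 8 UMIs, 173 without *Chrdl2*, 9 with it and 163 with *Myoc*. Smaller sets hold fewer cells, and the cause of the lower counts was not tested further.

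Members with fewer than 3 UMIs of markers of other cell types numbered 3, 2, 6 and 12, too few to be fitted across genes, and their log2 share ratio of mutants to controls was −1.51 of filtered barcodes and −2.24 of chondrocytes. As a share of chondrocytes the log2 ratio was 0.35 over all members and −0.55 for members without *Chrdl2*, a gene of the rule. Under the rule on *Msmp*, *Myoc* and *Casr* alone it was −0.21, and the libraries overlapped. Both alternatives were chosen after the data were seen.

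Of 102 genes followed, those that turned direction had the following log2 fold changes. Genes of the rule, such as *Casr*, *Chrdl2* and *Col10a1*, are among the 102, as are genes not called over all members, such as *Lats2* and *Lats1*. The value of *Casr* is set in part by the rule and by the split on *Chrdl2*. In members with *Chrdl2* these were *C4b* −0.22, *Casr* 0.95, *H2-D1* 0.20, *Hspa1a* 0.10, *Serpine2* −0.27, *Skil* −0.10, *Smoc1* 0.15 and *Smoc2* −0.15, and in members without it *Irs1* −0.031 and *Sod3* 0.29. In members that met the chondrocyte condition *Blvrb* was at 0.12 and *Prdx2* at 0.23. After thinning *C1qtnf12* was at 0.72, *Prdx2* at 0.32 and *Tgfb2* at −0.28. *Prdx2* was at 0.082 without members of high UMIs and at 0.16 without those rich in osteocalcin or hemoglobin. Without control library 1, 32 of the 102 lost their call, and without control library 2, 50 did.

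Deviations from the genotype mean correlated at 0.0271 between libraries with the same replicate number. With 2 libraries per genotype this is a single value by construction, so it cannot show whether the numbers mark pairs. A fit with the replicate number as a block called 332 higher and 185 lower genes.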
